A study of Mus musculus with 435 samples.

Results

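Leukocyte antigen, cytokine and chemokine genes were followed in mouse liver as signs of the immune cells there. They were taken by name: symbols in the series' probe-to-gene table that begin with Cd, Il, Ccl, Cxcl, Ccr, Cxcr or Tlr followed by a digit, Cd36 left out. The names matched 189 genes, of which 169 were measured on at least 100 arrays and form the set described here, out of 11633 genes so measured and 13409 in the table. Just inside that minimum lay Ccl22 and Cxcr3 with 100 arrays each. Just outside it lay Cd34 with 99 arrays and Cd68 and Cd46 with 92 each.

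The study compared liver of A/J and C57 mice fed a high-fat diet with that of mice fed a low-fat one. The 435 spotted arrays were labelled in 2 colours, with liver RNA in Cy5 and a common pool of 10 C57 tissues in Cy3. The pool was 26% liver, 26% kidney, 13% brown fat, 12% skeletal muscle and 6% lung among others, so every value is a level in liver relative to a mixture that itself contains liver and holds no spleen or lymph node by its label. The groups used were A/J low-fat (88 arrays), A/J high-fat (87), C57 low-fat (87) and C57 high-fat (88), each spread over weeks 1, 3 to 7 and 9 to 11 with 8 to 10 arrays a week. The labels name no substrain, sex, age, diet composition or genetic change, and do not say which arrays share a mouse. Week 8 was left out because 28 of its 40 arrays did not resemble the rest of the series, and week 0 is described separately. Those 28 arrays lay in every arm except C57 low-fat.

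Liver holds a resident immune population. Its Kupffer cells are macrophages of the sinusoids that take up particles and bacterial products from portal blood, and natural killer and T cells patrol the same vessels. Antigens numbered Cd are surface proteins first catalogued on white cells, many of which other cells also carry. Interleukins and chemokines are the secreted signals that activate and attract white cells, and Toll-like receptors sense microbial products.

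Of the 169 genes, 132 were tested and 37 were not. A tested gene had a mean in all 4 strain-by-diet arms in at least 6 of the 9 weeks. Among those not tested were Cd4, the co-receptor of helper T cells, Cd79b of the B cell receptor, the chemokines Ccl3, Ccl4, Ccl5 and Cxcl12, the monocyte receptor Ccr2 and the receptors Tlr5, Tlr7 and Tlr8. Il1b, an inflammasome product, and Cd68, a macrophage marker, are not in the set, so macrophages are described without them. All counts below are over the 132 tested genes, one probe a gene.

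The levels of these genes lay mostly below the pool. A level here is the mean log2 ratio of liver over pool, averaged over the 9 weeks and then over the 4 arms, after each array was centred on its median over commonly measured probes. The median level was -0.24, with 44 genes above 0 (33.3%) and 88 below, and the range ran from -2.16 to 1.27. All 11866 probes tested had a median of -0.21 and 33.5% above 0, so the set lay close to the array as a whole. The zero depends on the centring: with no centring 36 of the 132 were above 0, and after quantile normalization 48 were, while 64 and 65 of them lay above the median of all probes. No test was made against 0.

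Genes outside the set show which way the ratios run. The direction was itself read from the values, so these genes are no independent check of the tissue label. All 9 tested hepatocyte markers lay above 0, with a median of 1.14 and Alb, serum albumin, at 1.14. All 4 tested skeletal muscle markers lay below 0, with a median of -1.90, muscle being a part of the pool and not of liver.

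T cell and natural killer cell antigens had 15 tested members, with a median level of -0.27 and 5 above 0. They spanned the whole range of the set, from Cd8a at -2.16 to Cd160 at 1.27. Cd8a, the co-receptor of cytotoxic T cells, had weekly means from -3.36 to -0.50 (median -2.20) in A/J low-fat, -3.07 to -0.31 (-2.36) in A/J high-fat, -3.11 to -1.29 (-2.52) in C57 low-fat and -3.18 to -1.28 (-2.21) in C57 high-fat. No weekly mean of Cd8a was above 0, the 4 arms overlapped throughout, and the gene was measured on 34, 31, 39 and 46 arrays of the respective arms. Cd40lg, the helper T cell ligand that activates B cells, was the next lowest at -1.60.

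The chains of the T cell receptor complex did not share a level. Cd3d stood at 0.37 and Cd3e at 0.43, while Cd3g stood at -0.71 and Cd247, the zeta chain, at -0.27. Cd3e had weekly means from 0.13 to 0.51 (median 0.34) in A/J low-fat, 0.13 to 0.86 (0.49) in A/J high-fat, 0.12 to 0.62 (0.46) in C57 low-fat and 0.19 to 0.62 (0.49) in C57 high-fat. Every one of these weekly means was above 0, whereas those of Cd3g ran from -2.38 to 0.05. These are ratios of single probes to the pool, so the chains' order says nothing of how much of each was present.

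Cd160, a receptor of natural killer cells and cytotoxic T cells, had the highest level of the set. Its weekly means ran from 0.68 to 1.96 (median 0.95) in A/J low-fat, 0.67 to 1.90 (1.32) in A/J high-fat, 0.83 to 1.52 (1.08) in C57 low-fat and 1.02 to 2.42 (1.53) in C57 high-fat. All weekly means were positive and the arms overlapped. Cd27 (0.99) and Cd5 (0.98), a co-stimulatory and an inhibitory receptor of T cells, were the other T cell antigens far above 0.

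B cell antigens had 6 tested members, a median of -0.65 and 1 above 0. That 1 was Cd40 at 0.08, the receptor for Cd40lg, which macrophages and other cells also carry. The lowest were Cd37 at -1.40, a tetraspanin of mature B cells, and Cd79a at -1.23, a signalling chain of the B cell receptor. Cd79a had weekly means from -1.96 to -0.33 (median -1.01) in A/J low-fat, -1.90 to -0.22 (-1.19) in A/J high-fat, -2.40 to -0.37 (-1.36) in C57 low-fat and -2.98 to -0.45 (-1.25) in C57 high-fat. No weekly mean of Cd79a reached 0 in any arm.

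Myeloid antigens had 18 tested members, a median of -0.12 and 7 above 0. Cd14, the co-receptor for bacterial lipopolysaccharide, stood apart at 0.95, and the next highest were Cd83 and Cd163 at 0.20, Cd163 being the haemoglobin scavenger receptor of macrophages. Cd5l, a protein secreted by tissue macrophages, stood at -0.85 and Cd300c2, an activating receptor of myeloid cells, at -1.18. Cd74, the invariant chain of antigen presentation, was at -0.09 and Cd1d2, which belongs to the lipid-presenting family, at -0.01. Among antigens that many cells carry, 6 of 15 were above 0, with a median of -0.08. Their extremes were Cd93 at 1.17, a receptor of endothelium and myeloid cells, and Cd47 at -1.07, the signal that holds off phagocytosis. Cd63, a tetraspanin of lysosomes, was at 0.14.

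Secreted signals also lay on both sides of the pool. Of 25 interleukins 8 were above 0, with a median of -0.27 and a range from Il1f6 (-1.30), an interleukin 1 family cytokine of epithelia, to Il12b (1.08), the subunit shared by interleukins 12 and 23. Il10, an anti-inflammatory cytokine, had weekly means from 0.04 to 1.73 (median 0.86) in A/J low-fat, 0.13 to 1.11 (1.00) in A/J high-fat, -0.07 to 0.97 (0.65) in C57 low-fat and 0.01 to 1.25 (0.79) in C57 high-fat. In each arm the lowest week of Il10 was week 9. Il6, which drives the acute-phase response of hepatocytes, stood at -0.32, and its weekly means varied most of all tested members, from -2.04 to 2.57 in A/J low-fat. Of 15 chemokines 5 were above 0, with a median of -0.15. They ranged from the interferon-induced Cxcl9 (-1.45) to Ccl12 (1.20), which attracts monocytes. Ccl2, the main monocyte chemoattractant, was at -0.11, Cxcl1, which attracts neutrophils, at -0.05, and Ccl17, which attracts T cells, at 0.04.

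Receptors for these signals are given by class, with no test between classes. Interleukin receptors had 9 of 19 above 0 and a median of -0.07, with Il2ra, the alpha chain of the interleukin 2 receptor, at 1.06 and Il6st, the gp130 signalling chain, at 0.41. Chemokine receptors had 2 of 12 above 0 and a median of -0.66. The 2 were Ccr1l1 at 0.68 and Ccr10 at 0.07, and the lowest was Ccr7 at -1.19, the lymph-node homing receptor. Ccr9, of gut-homing lymphocytes, was at -0.45. All 3 tested Toll-like receptors were below 0: Tlr2 at -0.72, Tlr4 at -0.51 and Tlr1 at -0.12. Another 4 tested symbols match by spelling only, since Cd2ap, Cd2bp2, Cd3eap and Il4i1 are not surface antigens or cytokines.

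**Figure D1:**
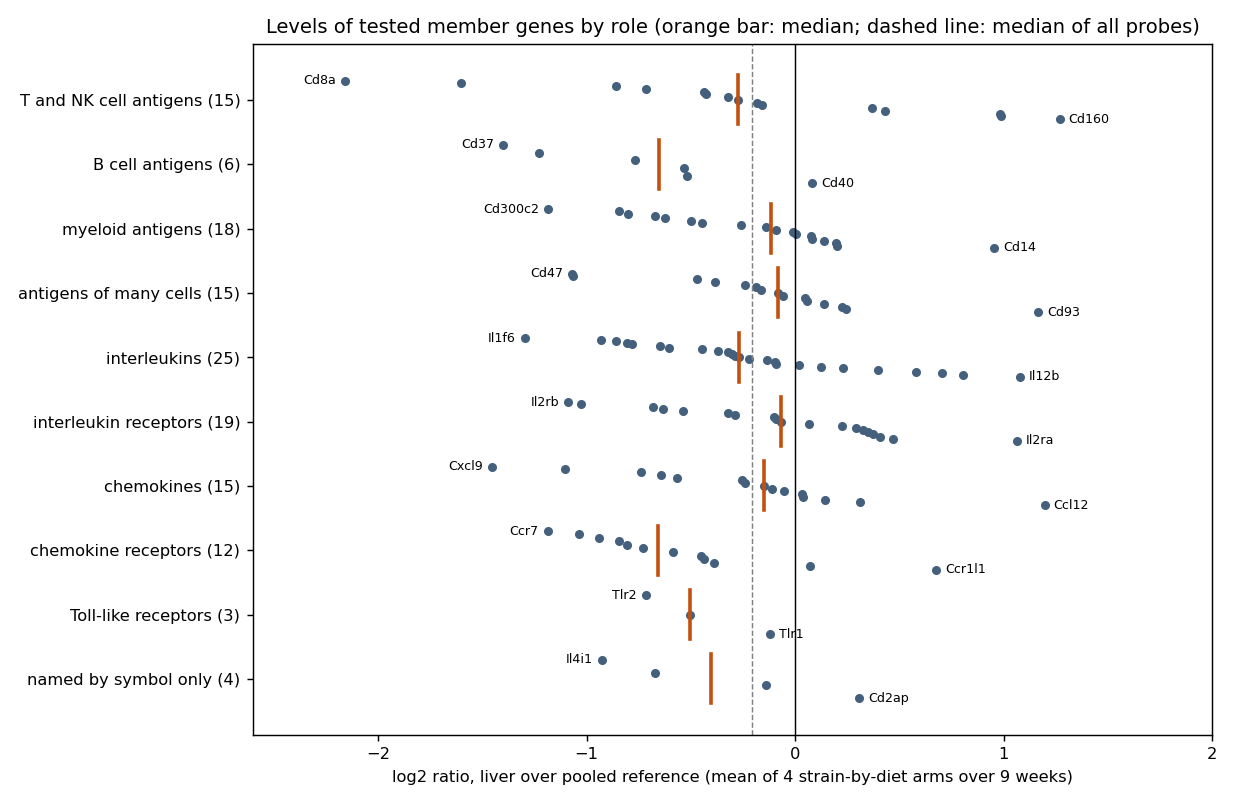
Levels of the 132 tested genes by role. Each point is 1 gene, the x axis is its mean log2 ratio of liver over pool, the orange bar is the median of the role, the dashed line is the median of all probes tested (-0.21), and the number tested stands beside each role. B cell antigens and chemokine receptors have the lowest medians among the roles (-0.65 and -0.66), and single genes such as Cd160, Cd93 and Ccl12 stand far to the right of their role.

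How often a probe gave a ratio varied widely and went with the level. Across the 132 genes Spearman's rho between the level and the number of arrays with a measured ratio was 0.583, and across all probes tested it was 0.575. This is a correlation across genes on the same arrays, given as a description. The median gene of the set was measured on 82% of the arrays used, against 84.9% for all probes.

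Many of the highest levels came from probes that were almost never measured at week 3. Of the 12 genes above 0.5, 6 had a ratio on at most 10% of the 40 arrays of that week: Ccl12, Il12b and Cd5 on 1 array each, Il2ra on 2, Cd27 on 4 and Cd14 on 0. At week 5 the same 6 genes were measured on 36 to 38 of 38 arrays. Of all probes tested, 836 had a level above 0.5, and 192 of these were measured as rarely at week 3, against 260 of all 11866. The other 6 (Cd160, Cd93, Il17a, Il10, Ccr1l1 and Il25) were measured on at least 39 of the 40 arrays of week 3. The part of this pattern in the 6 high levels was not tested, and that grouping was made after the values were seen. Cd14 shows what it means for 1 gene: its weekly means ran from 0.04 to 1.39 (median 1.13) in A/J low-fat, 0.27 to 1.59 (1.01) in A/J high-fat, 0.30 to 1.58 (0.80) in C57 low-fat and 0.31 to 1.59 (0.84) in C57 high-fat. All were above 0, but they rest on 57, 56, 48 and 49 arrays of the arms and on 8, 8, 7 and 7 of the weeks.

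**Figure D2:**
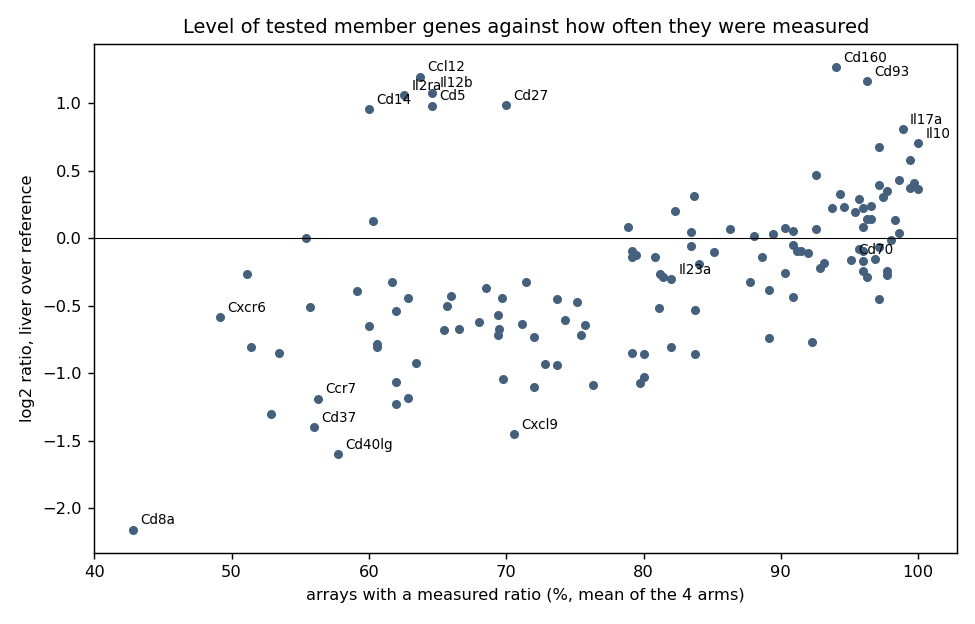
Level against the share of arrays with a measured ratio, for the 132 tested genes. The x axis is the percent of arrays measured, averaged over the 4 arms, and the y axis is the mean log2 ratio of liver over pool. Most genes lie lower the less often they were measured, and Ccl12, Il12b, Il2ra, Cd27, Cd5 and Cd14 form a separate group at high level and low share.

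Several genes with more than 1 probe showed that a level belongs to a probe. The set has 5 such genes, and 3 of them have both probes tested. Cd47 was at -1.07 by the probe measured on most arrays and at 0.02 by the other. Il6st was at 0.41 by one and -0.31 by the other. The probes of Cd200r3, a member of the Cd200 receptor family of myeloid cells, were at -0.14 and -0.20.

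The spread behind the levels was somewhat wider than over all probes by each median, with no test of the difference. The median SD over the weekly means of an arm was 0.389 (0.339 over all probes), and the median SD over the arrays of 1 group was 0.516 (0.478). The median distance between the highest and lowest arm, each an average of up to 9 weeks, was 0.206 (0.192 over all probes). All arms lay within 0.5 of each other for 126 of 132 genes and for 11300 of 11866 probes. The 6 exceptions were Cd40lg (0.81), Il23a, Il1f6, Cd86, Cd3g and Cd300c2. For 114 genes all arms lay on the same side of 0.

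The diet comparison asked whether high-fat feeding changed these genes in each strain. It called none of the 132 in either strain at an adjusted p under 0.05 in limma on the weekly means, with week as a block and adjustment over all 11866 probes. Of all probes, 0.135% were called in C57 and 0.0169% in A/J. At an unadjusted p under 0.05 there were 7 genes of the set in C57 (5.30%, against 5.43% of all probes) and 6 in A/J (4.55%, against 5.04%). The median difference, high-fat minus low-fat, was 0.02 in C57, with 70 genes above 0 and 62 below, and -0.01 in A/J, with 65 above and 67 below. In bulk liver fewer cells of a type and less RNA per cell cannot be told apart, which applies to every difference given here.

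Cd160 had the largest positive estimate in C57. High-fat minus low-fat was 0.37 ± 0.12 (SE, 9 weeks; adjusted p = 0.465), and the high-fat mean was the higher in 8 of 9 weeks, with weekly differences from -0.06 to 1.34. In A/J the difference was 0.30 ± 0.12 (adjusted p = 0.891), higher in 7 of 9 weeks. The weekly ranges given above overlap between diets in both strains, and week 6 holds the highest mean of C57 high-fat and of both A/J arms. The C57 difference was 0.23 after quantile normalization (adjusted p = 0.859) and 0.13 with all 10 weeks and all arrays (adjusted p = 0.998). The latter adds back week 8, in which most C57 high-fat arrays, but not the C57 low-fat ones, did not resemble the rest. Fitted to single arrays, over fewer probes, the C57 difference was 0.37 (adjusted p = 0.0253).

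The other estimates at the top of C57 were Cd86 (0.32 ± 0.30), a co-stimulatory ligand of antigen-presenting cells, and Ccr7 (0.31 ± 0.30). At the bottom were Cd40lg (-0.56 ± 0.29), Il4i1 (-0.37 ± 0.28), an amino acid oxidase of antigen-presenting cells, and Cd300ld (-0.29 ± 0.21), a myeloid receptor. Their adjusted p-values ran from 0.941 to 0.997, so none was called. Cd40lg was lower on high fat in 6 of the 7 weeks with both means.

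In A/J the largest positive estimates were Cd6 (0.40 ± 0.19), a T cell co-receptor, Cxcr6 (0.35 ± 0.20), a homing receptor of liver natural killer T cells, and Ccr6 (0.33 ± 0.15), of memory T and B cells. The largest negative ones were Cd300c2 (-0.43 ± 0.22), Il4i1 (-0.39 ± 0.28) and Ccl6 (-0.38 ± 0.21), a chemokine of myeloid cells. None was called, with adjusted p-values from 0.949 to 0.995. Cd3e was higher on high fat in 8 of 9 weeks of A/J, by 0.21 ± 0.07 (adjusted p = 0.844), and in C57 by 0.06 ± 0.07. Cd3g and Cd247, chains of the same complex, went opposite ways in A/J. Over the 9 fits that each left out 1 week, the difference was -0.42 to -0.17 for Cd3g and 0.04 to 0.20 for Cd247. Neither was called in any of these fits.

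Whether diet acted unequally in the strains was tested as an interaction, the C57 diet difference minus that of A/J. It called 0 genes of the set and 0% of all probes in limma, and 5 genes of the set had an unadjusted p under 0.05, against 3.03% of all probes. The extreme estimates were Cd86 (0.69 ± 0.41), Cd300c2 (0.51 ± 0.31) and Il20 (0.47 ± 0.33), an epithelial cytokine, on the positive side. On the negative side were Cd40lg (-0.47 ± 0.39), Cd6 (-0.44 ± 0.27) and Ccr6 (-0.44 ± 0.21). Their adjusted p-values were all 1.00.

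**Figure D3:**
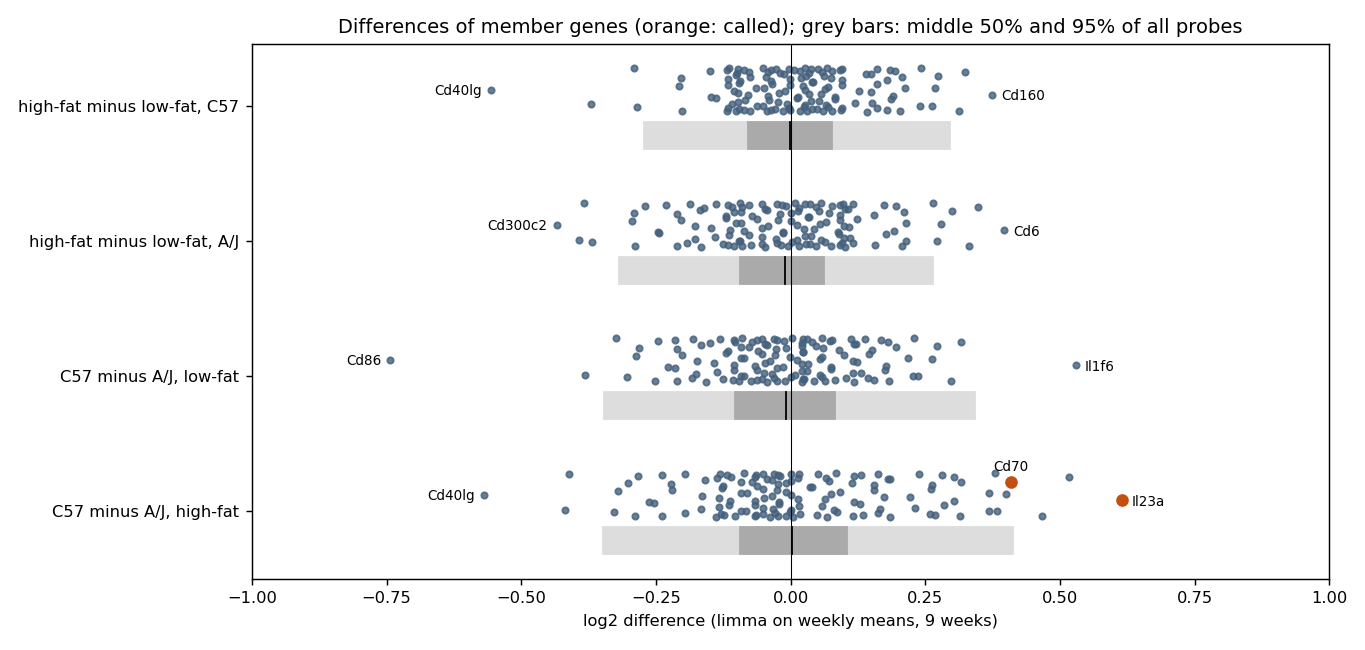
Diet and strain differences of the 132 tested genes. The x axis is the log2 difference fitted by limma on weekly means of 9 weeks, each point is 1 gene, orange points were called at an adjusted p under 0.05, and the grey bars give the middle 50% and 95% of all 11866 probes. From 3 to 10 genes lie outside the middle 95% in a comparison, and the only called genes are Il23a and Cd70 between the strains on high fat.

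The strain comparison gave the called genes. On the high-fat diet, C57 minus A/J was called for 2 of 132 genes (both higher in C57), against 2.44% of all probes, 1.74% being higher and 0.708% lower. At an unadjusted p under 0.05 there were 17 genes, 12.9% of the set and 12.9% of all probes. The set as a whole did not lie to one side, with 62 genes above 0, 70 below and a median of -0.01. Calls were no more frequent in the set than among all probes.

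Il23a, the subunit that pairs with Il12b to form interleukin 23, was higher in C57 than in A/J on high fat. Its weekly means ran from -0.85 to 0.67 (median 0.02) in C57 high-fat and from -1.05 to 0.33 (-0.65) in A/J high-fat. They ran from -0.83 to 0.41 (-0.22) in C57 low-fat and from -1.39 to -0.13 (-0.37) in A/J low-fat. C57 was the higher strain in 7 of 9 weeks on high fat, A/J being the higher at weeks 4 and 10, and the ranges overlapped. The difference was 0.62 ± 0.13 (SE, 9 weeks; adjusted p = 0.0068), a 1.53-fold ratio. Without each week in turn it stayed between 0.53 and 0.72 and was called every time (adjusted p from 0.00083 to 0.0404). On low fat it was 0.26 ± 0.13 (adjusted p = 0.527), and the test of the difference between diets gave 0.35 ± 0.19 (adjusted p = 1.00), so a dependence on diet was not shown. Il12b, its partner chain, differed by -0.02 ± 0.20 on high fat (adjusted p = 0.98).

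Cd70, the ligand of Cd27 on activated lymphocytes and dendritic cells, was the other. Its weekly means ran from -0.36 to 0.53 (median -0.14) in C57 high-fat and from -1.67 to 0.39 (-0.34) in A/J high-fat. They ran from -0.59 to 0.40 (-0.04) in C57 low-fat and from -0.69 to 0.20 (-0.37) in A/J low-fat. C57 was higher in 7 of 9 weeks, the ranges overlapped, and the A/J high-fat mean of week 11 lay below every other weekly mean of the gene. The difference was 0.41 ± 0.10 (adjusted p = 0.0248), a 1.33-fold ratio. It remained called in 4 of 9 fits that each left out 1 week, with adjusted p-values from 0.0135 to 0.0847, and was 0.27 without week 11. The call was lost without week 3, 5, 6, 7 or 11. Cd27, its receptor, differed by 0.13 ± 0.23 (adjusted p = 0.875).

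Other large estimates on high fat were not called. Cd3g (0.52 ± 0.15, adjusted p = 0.0705) was higher in C57 in 8 of 9 weeks and Cd300c2 (0.47 ± 0.22) followed. On the negative side stood Cd40lg (-0.57 ± 0.29), Il17rb (-0.42 ± 0.13, adjusted p = 0.109), a receptor for interleukin 25, and Il6 (-0.41 ± 0.28). Il17rb was lower in C57 in 8 of 9 weeks. Il17a, the cytokine that interleukin 23 sustains in T cells, was 0.37 ± 0.11 higher in C57 on high fat (adjusted p = 0.0827) and 0.32 ± 0.11 on low fat (adjusted p = 0.232).

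On the low-fat diet no gene of the set was called between strains, against 1.42% of all probes, 0.927% being higher and 0.489% lower. At an unadjusted p under 0.05 there were 12 genes (9.09%, against 9.90% of all probes), and the median was -0.01. The largest estimates were Il1f6 (0.53 ± 0.27), Il17a (0.32 ± 0.11) and Tlr4 (0.30 ± 0.12), the lipopolysaccharide receptor, on the C57 side. On the A/J side they were Cd86 (-0.74 ± 0.30, adjusted p = 0.357), Il6 (-0.38 ± 0.28) and Cxcl11 (-0.32 ± 0.16), an interferon-induced chemokine. The macrophage receptor Cd163 was 0.22 ± 0.09 higher in C57 on both diets (adjusted p = 0.41 on low fat and 0.302 on high fat), in 8 of 9 weeks on high fat. It was not typical of its role. Of the 18 tested myeloid antigens, 14 were lower in C57 on low fat (median -0.09) and 13 on high fat (median -0.06), with none called. Of all probes tested, 47.3% were higher in C57 on low fat and 50.8% on high fat, against 22.2% and 27.8% of these antigens. A macrophage and Kupffer cell list outside the set, given below, went the other way. There 7 of 12 tested genes were higher in C57 on low fat (median 0.02) and 8 on high fat (median 0.06).

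**Figure D4:**
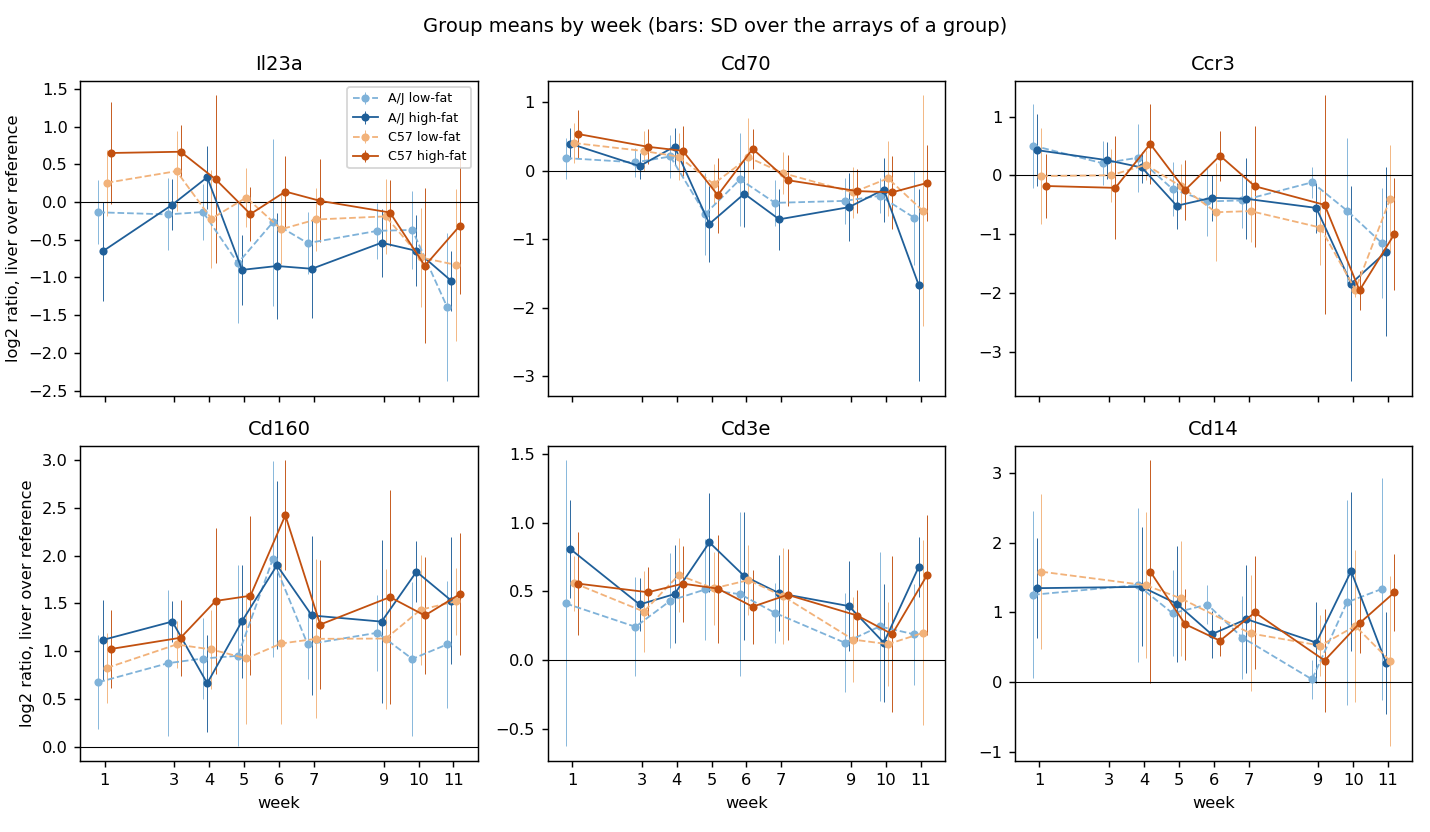
Weekly means of 6 genes in the 4 arms. The x axis is the week, the y axis is the log2 ratio of liver over pool, points are means of groups with at least 3 measured arrays, and bars are SDs over the arrays of a group. Il23a and Cd70 are higher in C57 high-fat than in A/J high-fat in 7 of 9 weeks each, Ccr3 is lowest at week 10 in 3 arms, Cd160 peaks at week 6 in 3 arms, and bars of the arms overlap in most weeks.

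The weekly median of the set shifted between weeks, in part beyond that of all probes. The median over its measured members was lowest at week 11 in each arm (-0.45 in A/J low-fat, -0.37 in A/J high-fat, -0.48 in C57 low-fat and -0.38 in C57 high-fat). It was highest at week 5 in each arm, between -0.03 and 0.04. Taken minus the median of all probes in the same group, it lay between -0.19 and 0.15. That difference was above 0 at week 5 in all 4 arms (0.06 to 0.15) and below 0 at week 11 in all 4 (-0.19 to -0.08), and it was not tested. At week 11 the median gene of the set was measured on 73.7% of the arrays, against 84.2% for all probes. At week 5 both shares were 92.1%. The part of this in the shift was not tested. A week and whatever was done to its arrays cannot be told apart, because the labels give no date of hybridisation.

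A straight line against week, common to the 4 arms, called 1 of 132 genes, against 0.91% of all probes (0.809% falling). At an unadjusted p under 0.05 there were 32 genes, 24.2% of the set and 22.3% of all probes. Ccr3, the eotaxin receptor of eosinophils, fell by 0.15 a week on the log2 scale (SE 0.03, adjusted p = 0.0456). Its weekly means ran from -1.15 to 0.51 (median -0.23) in A/J low-fat, -1.84 to 0.43 (-0.40) in A/J high-fat, -1.95 to 0.18 (-0.39) in C57 low-fat and -1.96 to 0.54 (-0.21) in C57 high-fat. The lowest week was week 10 in 3 arms and week 11 in A/J low-fat. The call held in 2 of 9 fits that left out 1 week, those without week 5 or week 9, with adjusted p-values from 0.0313 to 0.138 and slopes from -0.18 to -0.12. Without week 5 the fit called 10 genes of the set and 572 of all probes, so the number called turns on single weeks.

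Other slopes close to the threshold included Il1r1, the interleukin 1 receptor (0.19 a week), Tlr2 (-0.12), Il23a (-0.09) and Cd70 (-0.10), with adjusted p-values from 0.0654 to 0.0717. Whether the diet difference itself changed with week was also tested, and 0 genes of the set and 0% of all probes were called in limma. At an unadjusted p under 0.05 there were 14 genes, 10.6% of the set, against 4.97% of all probes. The largest of the named genes was Il2ra, with a slope of 0.13 ± 0.03 a week (adjusted p = 0.934).

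Genes of other lists give the setting for these values. In a macrophage and Kupffer cell list outside the set, 6 of 12 tested genes lay above 0, with a median of -0.12 and a range from Fcer1g (-1.33), an Fc receptor chain, to Clec4f (0.74), a lectin of Kupffer cells. Genes of all white cells had 1 of 7 above 0 and a median of -0.40, with Ptprc, the common leukocyte antigen, at -1.26. T and natural killer cell genes had 0 of 3 above 0, B and plasma cell genes 1 of 5, neutrophil genes 1 of 5, and dendritic cell genes 2 of 5. No gene of these 6 lists was called by diet or strain. Of the hepatocyte markers, 1 of 9 was lower in C57 on low fat, and on high fat 2 were higher and 1 lower. Their part in the strain differences was not tested. No red cell marker could be tested, so the blood left in the tissue was not assessed.

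Signalling genes downstream of these receptors, such as kinases of the Jak family, Stat factors and the NF-kappa B pathway, had 5 of 23 tested members above 0 and a median of -0.38. The highest was Socs1, an inhibitor of cytokine signalling, at 1.40, and the lowest Irak3, an inhibitor of Toll-like receptor signalling, at -1.30. Tumour necrosis factor, colony stimulating factor, transforming growth factor and interferon genes had 8 of 21 above 0 and a median of -0.17. None of either list was called in the diet or strain comparisons.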

How the data were processed

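Per the labels, liver RNA (Cy5) and pooled reference RNA (Cy3) were hybridised to spotted arrays. The authors' deposited values are linear ratios of liver over reference; image analysis, background correction and normalization are not given in the sources used here. Direction and scale were read from the values: each array's mean ratio is 1. Signal intensity is unknown, so precision rests on array numbers and on the spread over arrays and weeks. Ratios at or below 0 (0.251% and 0.272% of values) counted as not measured. Of 435 arrays, 2 identical columns, weeks 0 and 8 and 4 arrays with a correlation under 0.15 to the median array were left out of the tests, which left 350. Log2 ratios were centred per array on the median over probes measured on at least 70% of arrays. Weekly group means of at least 3 measured arrays were compared with limma 3.58.1 in R 4.3.3, with a term for each week, after tests on simulated data. The p-values of the arm comparisons measure the spread of weekly means left after arm and week terms, pooled over the 4 arms. Those of the slopes measure the spread of weekly values around the line. Either spread may be technical. Adjusted p-values are Benjamini-Hochberg over 11866 probes. Each gene was read from its most often measured probe. Symbols were updated through Entrez identifiers for 14416 of 14717 probes.

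Members, lists and tests were chosen with earlier results of these data known. Named genes are those called, the 3 largest estimates each way in each diet or strain comparison, the 6 highest and 6 lowest levels, the most measured gene of each role and defining markers. Genes named beyond that rule, such as chains of a complex, partners of called genes and the extremes of a list, were chosen after their values were seen. Alternatives were no centring, quantile normalization, a stricter filter, a floor for ratios at or below 0, group medians, weights by array number, all 10 weeks with all arrays, single arrays with and without a replicate block, and leaving out each week.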

Additional observations from a re-analysis of the deposited data

Results flagged for a closer look

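In 7 of 88 sets of weekly means, 1 week stood far from the others of its gene and arm. The nominal rate by chance is about 1 in 20 sets. All flagged genes were among those named for a call or an extreme estimate in these data. The arms of a gene also share weeks, so the sets are not independent. No excess over chance can therefore be read from this count. Cd160 was high at week 6 in A/J low-fat (1.96, the next week at 1.19) and in C57 high-fat (2.42, the next at 1.60). Ccr3 was low at week 10 in C57 low-fat (-1.95, the next at -0.89). Week 11 was low for Il4i1 in A/J low-fat (-1.72), for Ccr7 in A/J high-fat (-2.38) and for Ccr6 in C57 low-fat (-1.89). Il20 was low at week 1 in C57 low-fat (-2.20). In each case the value is a group mean, and the cause was not tested.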

How the results depend on the processing

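Over the named genes and alternatives, 461 values kept their direction and side of the threshold, 15 lost a call, 8 gained one and 2 changed sign. Il23a between strains on high fat was called under every alternative run. With single arrays, 86 genes of the set and 7821 probes were tested, so the unit of replication and the probes tested changed together. In these fits 10 genes of the set were called between strains on high fat, 5 on low fat and 1 by diet in C57 (Cd160). With the replicate block, and thus paired by number, the counts were 10, 4 and 1. The share of the 7821 probes called in the same fits is not given here, so these counts show nothing particular to the set. The median correlation of same-numbered arrays ran from -0.03 to 0.06, which cannot settle whether the replicate numbers pair the arrays. Between the C57 diets it was 0.06, against -0.01 for arrays of unlike number. With group medians 1 gene was called on either diet, Cd2ap on low fat and Il23a on high fat. The slope with week called 4 genes after quantile normalization, 4 with the stricter filter, 0 with a floor for low ratios and 0 with all 10 weeks. For these alternatives and for group medians the counts over all probes are not given here. Leaving out 1 week gave 0 to 10 genes of the set for the slope, with 0 to 572 of all probes. Between strains on high fat it gave 1 to 3 genes of the set, with 212 to 269 of all probes. The cause was not tested. The sign reversed for the diet difference in C57 of Cd86 with group medians (-0.016) and of Ccr7 without week 6 (-0.059, the range over left-out weeks ending at 0.41), neither of them called.

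Signal intensity being unknown, precision is read here from the number of measured arrays and from the spread over arrays and weeks. For want of measured ratios, 37 genes of the set could not be tested at all.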

Other observations

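At week 0, for which the labels already give a diet, 62 of the genes were measured on at least 3 arrays in all 4 groups. Their level had the same sign as in the later weeks for 51 of them, with Pearson's r of 0.776 and Spearman's rho of 0.727 across genes, which are not independent replicates. Cd160 was at 0.29 ± 0.33 (SD, n = 9 arrays) in A/J low-fat, 0.76 ± 0.43 (n = 7) in A/J high-fat, 0.96 ± 0.23 (n = 7) in C57 low-fat and 0.85 ± 0.59 (n = 9) in C57 high-fat. Cd3e was at 0.30 ± 0.27 (n = 9), 0.86 ± 0.45 (n = 8), 0.10 ± 0.49 (n = 8) and 0.23 ± 0.34 (n = 8) in the same order. The A/J high-fat group of Cd3e was thus the highest at week 0 as well, with ranges not tested. Cd70 was at 0.21 ± 0.52 (n = 7) in C57 high-fat and 0.25 ± 0.18 (n = 6) in A/J high-fat, a difference of -0.04. Il23a and Ccr3 were measured too rarely at week 0 for such means.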
